A study of Mus musculus with 7 samples.

Results

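The genes described here make and sense 2 families of lipid mediators, the prostaglandins and the leukotrienes, in macrophages of the inflamed mouse colon. The 10 genes were chosen by name: 6 belong to the cyclooxygenase arm (Ptgs1, Ptgs2, Ptges, Hpgds, Ptger2 and Ptger4) and 4 to the lipoxygenase arm (Alox5, Alox5ap, Lta4h and Ltc4s). A gene was measured where a probe set of the array was annotated to its symbol and to no other, and the probe set with the highest mean over the 7 arrays was taken. By this rule 9 of the 10 genes were measured, out of 22180 genes on the array, and Ptgs1 was not analysed here. Alox5 and Alox5ap each had 2 such probe sets, and the other 7 measured genes had 1.

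Both families start from arachidonic acid, a fatty acid that phospholipase A2 enzymes cut from membrane lipids. Cyclooxygenases turn it into prostaglandin H2, from which terminal synthases make prostaglandin E2 or D2, and cells sense prostaglandin E2 through receptors such as EP2 and EP4. In the lipoxygenase arm, 5-lipoxygenase with the help of its activating protein FLAP makes leukotriene A4, which is then turned into leukotriene B4, an attractant of neutrophils, or into the cysteinyl leukotrienes. In the gut, prostaglandin E2 is known for its part in epithelial repair and in colorectal tumour growth, and macrophages are among its sources.

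RNA came from macrophages sorted out of the colon lamina propria as CD45+ CD11b+ CD64+ MHCII+ Ly6C- cells and was measured on Mouse Gene 2.0 ST arrays of Affymetrix, each sample on an array of its own. The mice had colitis from 5% dextran sulphate sodium (DSS), which damages the lining of the colon, taken over 5 days, with plain water for the next 3 days. All carried floxed alleles of Rictor, a subunit of the kinase complex mTORC2. The control group was Rictorfl/fl LysM+/+ (3 arrays), and the other group, Rictorfl/fl LysM+/cre (4 arrays), also had 1 allele of cre in the LysM (Lyz2) locus. That locus drives cre in macrophages, monocytes and neutrophils alike. A group with cre but without floxed Rictor was not analysed here, so loss of Rictor, cre itself and the disrupted Lyz2 allele cannot be told apart. The labels state neither age nor sex, nor whether an array held cells of 1 mouse or of several. The comparison asks how macrophages from mice with cre differ from those of mice without it in colitis.

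The start regions of Ptgs2, Hpgds and Alox5 are shown because the first pair are the measured genes whose arrays did not overlap between genotypes and Alox5 had the largest difference among them. Each sequence is from RefSeq, build GRCm38.p6, and runs 5′ to 3′ on the gene's strand from 250 bases before to 50 bases after the annotated start. Ptgs2 lies at chr1:150099781-150100080 on the + strand, Hpgds at chr6:65144681-65144980 on the - strand and Alox5 at chr6:116461129-116461428 on the - strand. Capitals mark matches to the motifs named after the sequences.
Ptgs2: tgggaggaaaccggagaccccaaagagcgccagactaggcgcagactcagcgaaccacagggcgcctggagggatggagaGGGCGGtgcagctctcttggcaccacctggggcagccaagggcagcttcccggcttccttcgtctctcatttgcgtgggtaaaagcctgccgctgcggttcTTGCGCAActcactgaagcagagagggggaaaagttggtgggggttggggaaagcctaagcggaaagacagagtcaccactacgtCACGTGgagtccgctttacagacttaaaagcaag
Hpgds: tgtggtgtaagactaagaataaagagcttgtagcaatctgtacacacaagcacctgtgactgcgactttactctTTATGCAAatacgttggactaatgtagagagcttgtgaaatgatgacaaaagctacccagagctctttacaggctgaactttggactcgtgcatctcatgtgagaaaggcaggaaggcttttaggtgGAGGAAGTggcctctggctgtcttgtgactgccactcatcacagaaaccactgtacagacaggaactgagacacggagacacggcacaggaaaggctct
Alox5: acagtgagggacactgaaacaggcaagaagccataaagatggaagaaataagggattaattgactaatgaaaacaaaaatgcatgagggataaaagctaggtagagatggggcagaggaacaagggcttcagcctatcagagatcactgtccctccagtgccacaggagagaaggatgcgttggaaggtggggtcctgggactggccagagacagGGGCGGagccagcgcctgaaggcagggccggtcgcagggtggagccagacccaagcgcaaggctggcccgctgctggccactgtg
Motifs were searched on both strands, and a match is only a match of letters. The Ptgs2 window held a GC box (GGGCGG, in 35.7% of the 32851 promoter windows of this length) 170 to 165 bases before the start. It also held a C/EBP motif (TTGCNNAA, 10.8% of windows) 69 to 62 bases before the start, which reads the same on both strands, and an E-box (CACGTG, 7.15%) 17 to 22 bases after it. The Hpgds window held a PU.1 motif (GAGGAAGT, 3.2% of windows) 49 to 42 bases before the start and a C/EBP motif 176 to 169 bases before it. The Alox5 window held a GC box 35 to 30 bases before the start. The searched TATA box (TATAAA, 13.6% of windows), EGR site (GCGNGGGCG, 5.55%), cAMP response element (TGACGTCA, 1.79%), FoxO site (GTAAACA, 3.65%) and AP-1 site (TGANTCA, 7.81%) had no match in these 3 windows, and none of the motifs matched in the windows of Ltc4s and Lta4h.

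The deposited values are log2 intensities, on which a difference of 1 is a doubling. Array medians lay between 5.16 and 5.22. Differences are LysM+/cre minus LysM+/+, tested with limma across all genes, with p-values adjusted by the Benjamini-Hochberg method over all of them. By limma 0 of 22180 genes (0.0%) passed an adjusted p of 0.05, while 2549 genes (11.5%) had an unadjusted p under 0.05. For 8.79% of genes the values of the 2 genotypes had no overlap. Rictor itself read 7.76, 7.74 and 7.80 without cre and 7.72, 7.76, 8.25 and 7.80 with cre, a difference of 0.12 ± 0.13 (SE; limma, adjusted p = 0.749). Neither the labels nor the annotation place its probes relative to the floxed part, so these values do not check the genotypes. All 10 macrophage markers, among them Adgre1, Csf1r and Mertk, lay above the level of the median gene, and the mean of the list ran from 10.94 to 11.15 on the LysM+/+ arrays and from 10.88 to 11.33 on the LysM+/cre arrays. In sorted samples, a smaller share of cells that express a gene and less of its RNA per cell cannot be told apart.

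None of the 9 genes passed the adjusted threshold, and the adjusted p-values ran from 0.395 to 0.957 (limma). The unadjusted p was under 0.05 for 1 of the 9 (Hpgds, lower with cre), or 11.1% of them, against 11.5% of all genes. Genotypes had no overlap for 2 of the 9, Ptgs2 (higher with cre, as were 5.23% of all genes) and Hpgds (lower with cre, as were 3.56%), or 22.2% against 8.79% of all genes. By direction, 4 of the 9 had a higher mean with cre and 5 a lower one. The median size of the difference, without its sign, was 0.42, against 0.16 for the 11090 genes above the median level. The median standard error was larger as well, at 0.33 against 0.13.

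**Figure D1:**
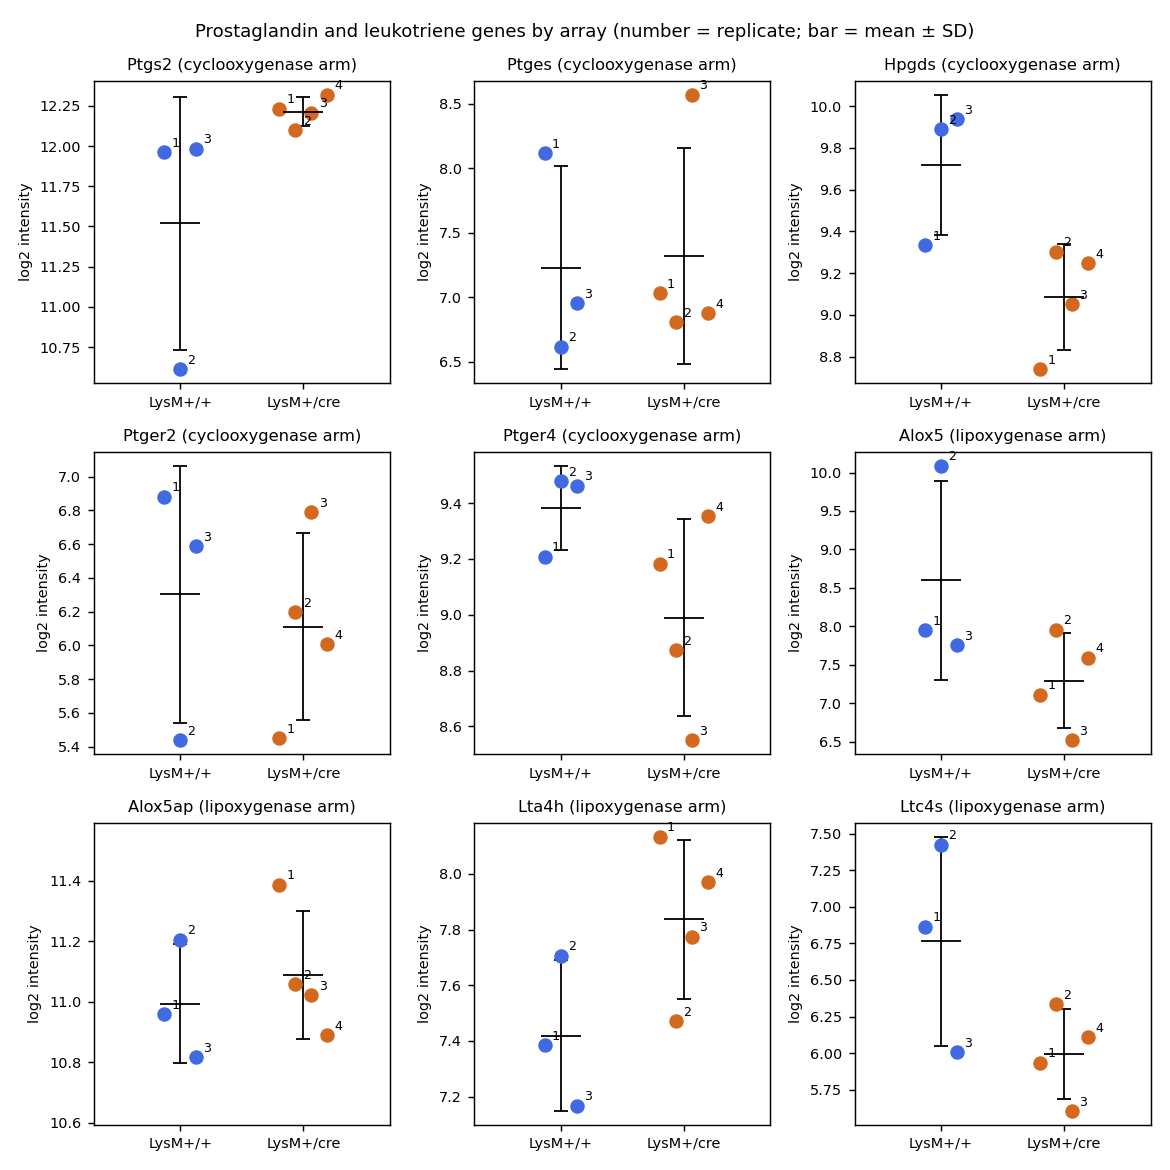
Log2 intensity (y axis, a separate scale in each panel) of the 9 measured genes on the LysM+/+ (blue, n = 3) and LysM+/cre (orange, n = 4) arrays. Points are arrays numbered by replicate and bars are the mean ± SD, and only Ptgs2 and Hpgds have genotypes without overlap.

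Ptgs2 encodes cyclooxygenase-2, the inducible enzyme that commits arachidonic acid to prostaglandins at sites of inflammation. Its values were 11.96, 10.61 and 11.98 on LysM+/+ arrays 1 to 3 and 12.23, 12.10, 12.21 and 12.32 on LysM+/cre arrays 1 to 4. Each LysM+/cre array lay above each LysM+/+ array, but LysM+/+ array 2 stood far below its group while the cre arrays lay within 0.22 of each other. The means were 11.52 ± 0.79 (SD, n = 3) and 12.21 ± 0.091 (SD, n = 4). The difference was 0.70 ± 0.33 (SE), or 1.62-fold, with a 95% interval from -0.088 to 1.48 (limma, adjusted p = 0.468). Most of it came from LysM+/+ array 2, since it was 0.24 without that array (limma, adjusted p = 0.411) and at least 0.66 without any other single array. That array also widened the spread: the unadjusted p in limma was 0.0739 with all arrays and 0.0215 without it. With other single arrays left out, the unadjusted p ran from 0.0420 to 0.142.

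Hpgds encodes the haematopoietic prostaglandin D synthase, which makes prostaglandin D2 in mast cells, macrophages and some T cells. It read 9.33, 9.89 and 9.94 on the LysM+/+ arrays and 8.74, 9.30, 9.05 and 9.25 on the LysM+/cre arrays. All cre arrays lay below all control arrays, although the gap between LysM+/+ array 1 and LysM+/cre array 2 was narrow. The group means were 9.72 ± 0.34 (SD, n = 3) and 9.09 ± 0.25 (SD, n = 4). The difference of -0.63 ± 0.19 (SE), with an interval from -1.10 to -0.17, had the smallest p of the 9 genes (limma, unadjusted p = 0.0143, adjusted p = 0.395). It ranged from -0.83 to -0.52 when single arrays were left out. The share of genes lower with cre at this unadjusted threshold was 4.93%. Among mast cell markers, 7 of 10 (Cpa3, Tpsab1, Cma1, Mcpt1, Mcpt2, Mcpt4 and Ms4a2) lay below the lower quartile of gene levels, and the list mean ran from 4.11 to 4.85 without cre and from 4.17 to 4.43 with it. Cpa3, a mast cell protease, was at 6.61 on LysM+/+ array 3, where Hpgds was highest, and between 3.61 and 4.18 on the other 6 arrays. On LysM+/+ array 2, where Hpgds was nearly as high (9.89), Cpa3 was at 3.67 and the mast cell list mean was lowest (4.11). Of the 10 mast cell markers 5 were higher and 5 lower with cre. Of the 8 tuft cell markers, 4 lay below the median gene, and the list mean ran from 5.50 to 5.58 without cre and from 5.54 to 5.63 with it. The part of either cell type in the Hpgds values was not tested.

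Ptges encodes the microsomal prostaglandin E synthase that works with cyclooxygenase-2. Its values of 8.12, 6.62 and 6.95 without cre and 7.03, 6.81, 8.57 and 6.88 with cre overlapped widely. LysM+/+ array 1 and LysM+/cre array 3 were high and the other 5 arrays lay close together. The difference was 0.093 ± 0.54 (SE), with an interval from -1.18 to 1.36 (limma, adjusted p = 0.957). Its sign turned without LysM+/cre array 3 (-0.32), so these arrays do not settle a direction for Ptges.

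The receptor genes Ptger2 and Ptger4 encode EP2 and EP4, which raise cyclic AMP when prostaglandin E2 binds. Ptger2 read 6.88, 5.44 and 6.59 without cre and 5.45, 6.20, 6.79 and 6.01 with cre. The LysM+/cre values all fell inside the range of the controls, with a difference of -0.19 ± 0.42 (SE; limma, adjusted p = 0.881). Ptger4 read 9.21, 9.48 and 9.46 without cre and 9.18, 8.87, 8.55 and 9.35 with cre. Of the cre arrays, 3 lay below all controls and array 4 lay among them. The Ptger4 difference was -0.39 ± 0.20 (SE), with an interval from -0.86 to 0.070 (limma, adjusted p = 0.487).

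Alox5 encodes 5-lipoxygenase, the first enzyme of leukotriene synthesis. Its values were 7.95, 10.09 and 7.76 on the LysM+/+ arrays and 7.11, 7.96, 6.52 and 7.59 on the LysM+/cre arrays. LysM+/+ array 2 stood more than 2 log2 units above every other array, and LysM+/cre array 2 reached the level of LysM+/+ array 1. The means of 8.60 ± 1.30 (SD, n = 3) and 7.29 ± 0.62 (SD, n = 4) gave a difference of -1.30 ± 0.62 (SE), or 2.47-fold lower with cre. This was the largest difference and the largest error among the 9 genes (interval from -2.78 to 0.17; limma, adjusted p = 0.470). Without LysM+/+ array 2 it was -0.56 (limma, adjusted p = 0.631). The dimmer Alox5 probe set stayed between 5.43 and 5.63 on all 7 arrays, near the level of the median gene (5.55), with a difference of -0.058 ± 0.059 (SE). So flat a signal cannot serve as a check on the brighter probe set, which alone carried the Alox5 difference. The mean of both probe sets gave -0.68.

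Alox5ap encodes FLAP, the membrane protein that hands arachidonic acid to 5-lipoxygenase. It was the steadiest of the 9 genes over the arrays, at 10.96, 11.21 and 10.82 without cre and 11.39, 11.06, 11.02 and 10.89 with cre. The genotypes overlapped, with a difference of 0.095 ± 0.14 (SE) and an interval from -0.24 to 0.43 (limma, adjusted p = 0.815). The dimmer Alox5ap probe set read between 5.17 and 5.92, near the level of the median gene (5.55) and far below the brighter one. It gave 0.35 ± 0.16 (SE; limma, unadjusted p = 0.0746).

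Lta4h encodes leukotriene A4 hydrolase, which makes leukotriene B4. It read 7.38, 7.71 and 7.17 without cre and 8.13, 7.47, 7.77 and 7.97 with cre. Of the cre arrays, 3 lay above all controls, and array 2 lay between LysM+/+ arrays 1 and 2. The difference was 0.42 ± 0.19 (SE), with an interval from -0.029 to 0.86 (limma, adjusted p = 0.452).

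Ltc4s encodes leukotriene C4 synthase, which joins leukotriene A4 to glutathione and so opens the cysteinyl branch. It read 6.86, 7.43 and 6.00 without cre and 5.93, 6.33, 5.60 and 6.11 with cre. LysM+/+ arrays 1 and 2 were above all cre arrays, while LysM+/+ array 3 lay in their midst. The difference was -0.77 ± 0.34 (SE), with an interval from -1.57 to 0.029 (limma, adjusted p = 0.448), and it was -0.44 without LysM+/+ array 2 (limma, adjusted p = 0.617). The enzymes that share leukotriene A4 as substrate thus had fitted differences of opposite sign, and neither passed the test.

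**Figure D2:**
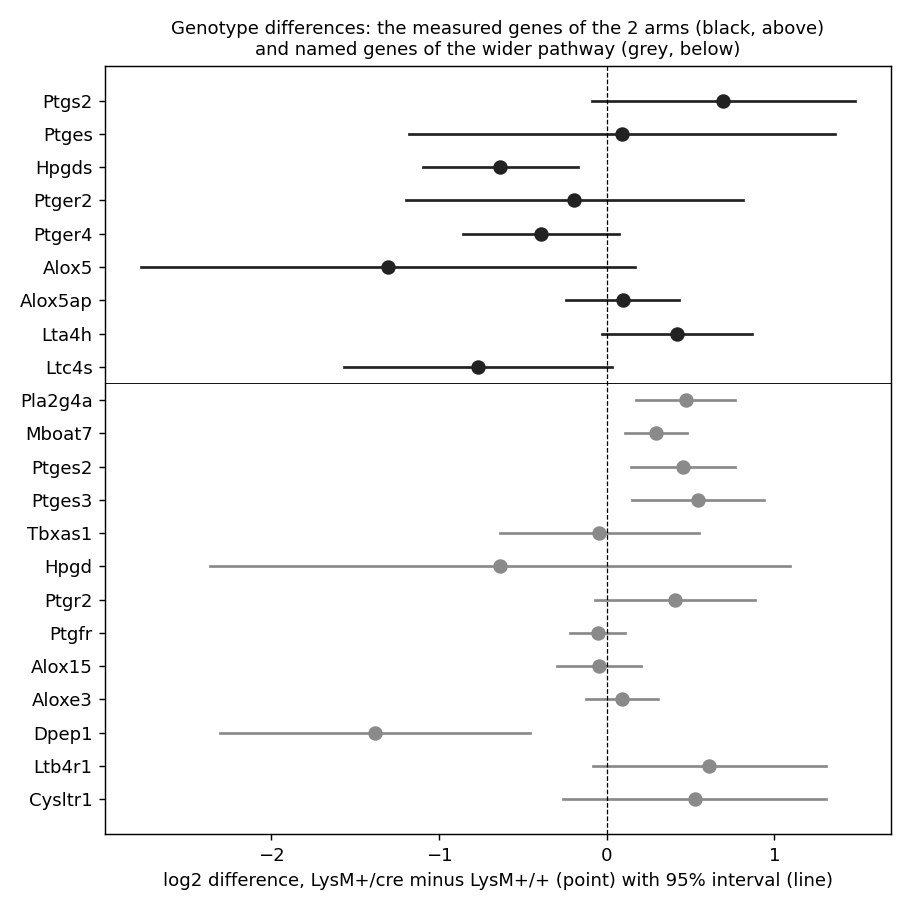
Log2 difference between genotypes (x axis, LysM+/cre minus LysM+/+; point, with the 95% interval as a line) for the 9 measured genes (black) and for the named genes of the wider pathway (grey). Among the 9 genes, only the interval of Hpgds (-1.10 to -0.17) leaves out 0, and no gene shown passed an adjusted p of 0.05.

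Set side by side, each arm held genes of both directions. The cyclooxygenase arm had 2 genes with a higher mean with cre (Ptgs2 and Ptges) and 3 with a lower one (Hpgds, Ptger2 and Ptger4), with a median difference of -0.19. The lipoxygenase arm had 2 higher (Alox5ap and Lta4h) and 2 lower (Alox5 and Ltc4s), with a median of -0.34. Over all genes the median was 0.0044. In the cyclooxygenase arm 1 of 5 genes had an unadjusted p under 0.05 and in the lipoxygenase arm 0 of 4, against 11.5% of all genes. The cyclooxygenase median turned sign when LysM+/+ array 1 (0.097) or LysM+/cre array 1 (0.029) was left out, and was -0.34 without LysM+/+ array 2. These medians rest on 5 and 4 genes with opposite signs and were not tested.

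Much of the spread of the 9 genes lay between arrays of the same genotype. LysM+/+ array 2 held the highest or the lowest value for 6 of them: it was highest for Ptger4, Alox5 and Ltc4s and lowest for Ptgs2, Ptges and Ptger2. LysM+/cre array 3 held an extreme for 4, being highest for Ptges and lowest for Ptger4, Alox5 and Ltc4s. As deviations from a gene's own mean over the arrays, Alox5 lay at 2.24 and Ltc4s at 1.10 on LysM+/+ array 2, where Ptgs2 lay at -1.30. On LysM+/cre array 3 Alox5 lay at -1.34 and Ltc4s at -0.72, while Ptges lay at 1.29. The median deviation without sign was 0.66 for the 9 genes on LysM+/+ array 2, against 0.091 for all genes there, and 0.60 on LysM+/cre array 3, against 0.081. All genes include dim ones, which vary less, while the 9 genes lay above the median level. The median range over the arrays was 0.47 for all genes and 0.59 for genes above the median level. Averaged over its genes, the cyclooxygenase arm lay at -0.37 and the lipoxygenase arm at 0.89 on LysM+/+ array 2, and at 0.25 and -0.49 on LysM+/cre array 3. Both arrays were singled out for their extreme values, so these gaps are no separate result. The genes of an arm did not all deviate alike. On LysM+/+ array 2 Alox5ap lay at 0.16 and Lta4h at 0.048, and in the cyclooxygenase arm Hpgds (0.53) and Ptger4 (0.32) lay above their means.

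**Figure D3:**
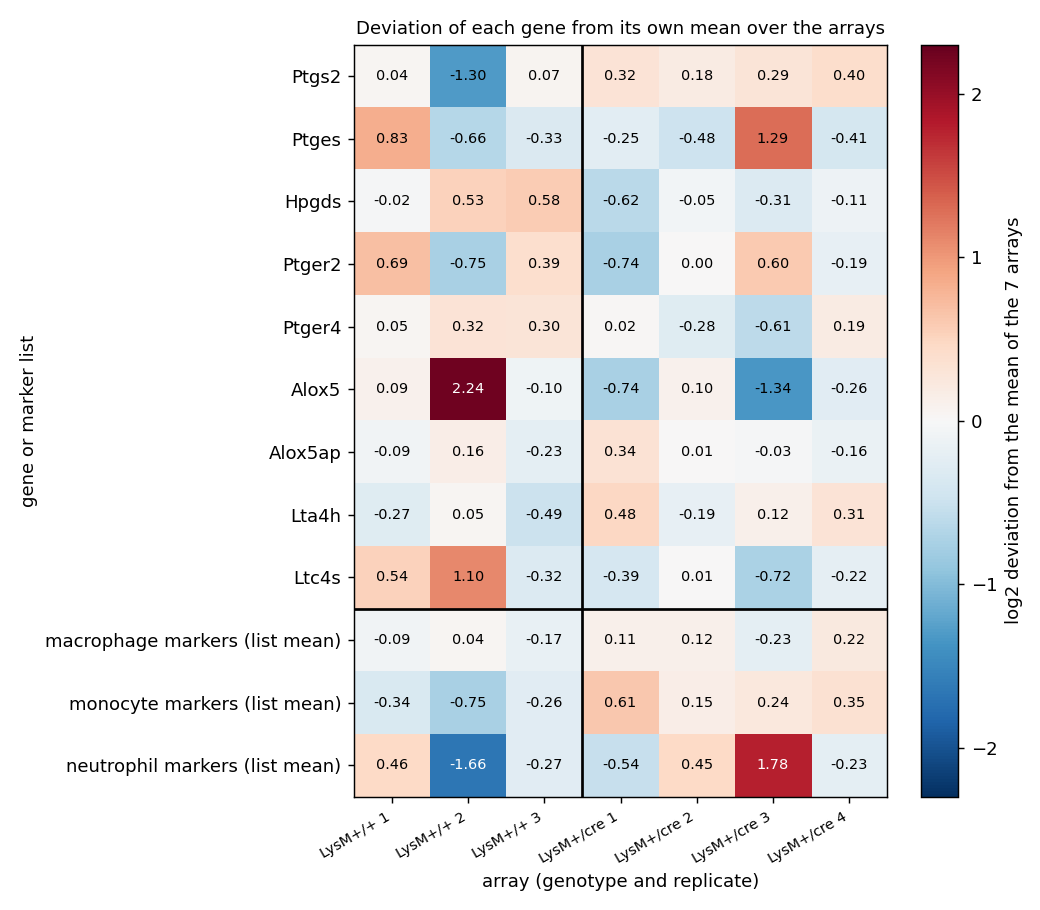
Log2 deviation of each of the 9 genes (upper rows) and of 3 marker list means (lower rows) from the mean over the 7 arrays, for each array (columns, by genotype and replicate). LysM+/+ array 2 combines high Alox5 (2.24) and Ltc4s (1.10) with low Ptgs2 (-1.30) and low neutrophil markers (-1.66), and LysM+/cre array 3 shows low Alox5 (-1.34) with high Ptges (1.29) and high neutrophil markers (1.78).

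The same arrays were the extremes of the neutrophil markers, cells that the sort should leave out. The mean of the 9 markers was lowest on LysM+/+ array 2 (5.46), highest on LysM+/cre array 3 (8.89) and between 6.58 and 7.57 on the other 5 arrays. S100a8, a calcium-binding protein abundant in neutrophils, was lowest at 4.74 on the former and highest at 9.87 on the latter, with LysM+/+ array 1 next at 8.75. Ptges had its 2 highest values on LysM+/cre array 3 and LysM+/+ array 1, in the same order. Ptger2 was highest on those arrays too, in the reverse order. LysM+/cre array 2 did not share this pattern. Its neutrophil list mean (7.57) was that of LysM+/+ array 1 (7.57) and its S100a8 was at 8.31, but its Ptges was at 6.81, against 8.12 on LysM+/+ array 1. The 6 measured monocyte markers had list means from 7.31 to 7.80 without cre and from 8.20 to 8.67 with cre, with no overlap. The lowest list mean was also on LysM+/+ array 2. Taken singly, 5 of the markers were higher with cre and 1 was lower, and Chil3 had the largest difference (2.36). Only 1 of the 6 had genotypes without overlap, F13a1, which was lower with cre, against 8.79% of all genes in either direction. All 9 neutrophil markers had a higher mean with cre (median difference 0.66), but the genotypes overlapped for each of them. Of the 9, 1 (11.1%, against 11.5% of all genes) had an unadjusted p under 0.05 in limma. Mmp9, a neutrophil granule protease, had a fitted difference of 1.35 and the monocyte antigen Ly6c2 one of 1.09, while F13a1 had -1.08, and none of them passed the test. The part of such cells in the values of Ptges, Ptger2, Ptgs2 or Alox5 was not tested. Without both of these arrays, a choice made after seeing the data, the differences were 0.24 for Ptgs2, -0.30 for Alox5, -0.31 for Ltc4s, -0.63 for Ptges, -0.85 for Ptger2 and -0.54 for Hpgds, and 0 of the 9 passed the adjusted threshold.

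**Figure D4:**
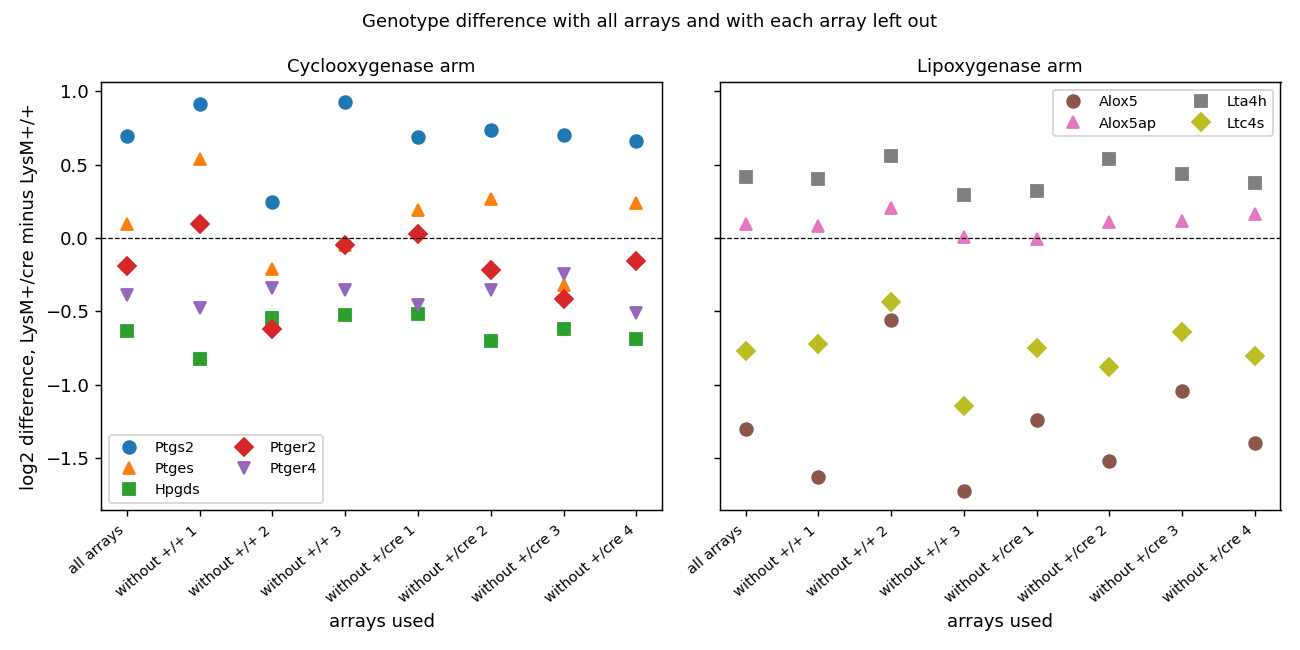
Log2 difference between genotypes (y axis) of the genes of the cyclooxygenase arm (left) and the lipoxygenase arm (right), with all arrays and with each array left out in turn (x axis). Leaving out LysM+/+ array 2 brings Ptgs2 to 0.24, Alox5 to -0.56 and Ltc4s to -0.44. Ptges crosses 0 without LysM+/+ array 2, LysM+/+ array 3 or LysM+/cre array 3. Ptger2 does so without LysM+/+ array 1 or LysM+/cre array 1, and Alox5ap without LysM+/cre array 1.

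The genes whose pattern over the 7 arrays was nearest to that of Ptgs2 and of Alox5 were sought among 11089 genes above the median level, by the root mean square difference of values centred on each gene's mean. For Ptgs2, whose own SD over the arrays was 0.59, they were Sorl1, a sorting receptor (0.14), Mpp7, a scaffold protein of cell junctions (0.15), and Treml2, a myeloid and lymphoid surface receptor (0.15). For Alox5, with an SD of 1.11, they were Folr2, the folate receptor beta found on resident macrophages (0.20), Hspa1l, a member of the Hsp70 family (0.30), and Gas6, a ligand of the TAM receptors (0.31). Folr2 read 9.49, 11.24 and 9.10 without cre and 8.95, 9.30, 8.07 and 9.19 with cre. It was thus highest on LysM+/+ array 2 and lowest on LysM+/cre array 3, as Alox5 was. With 7 arrays and this many candidates, close patterns are found for many genes.

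The wider pathway was given by 51 further genes, of which 45 were measured. Of these, 4 had an unadjusted p under 0.05 and were higher with cre (8.89% of 45 against 6.56% of all genes), and 1 was lower (2.22% against 4.93%), while 0 passed an adjusted p of 0.05 in limma. Genotypes had no overlap for 5 of the 45 (11.1%, against 8.79% of all genes). The median difference of the list was 0.015. Without LysM+/+ array 1 the count at the unadjusted threshold was 10 of 45 in place of 5. Over all 22180 genes it was 2779 in that setting in place of 2549.

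Among the 11 measured genes of arachidonate release and re-esterification, 2 had an unadjusted p under 0.05 (18.2%, against 11.5% of all genes). Pla2g4a encodes the cytosolic phospholipase A2 that releases arachidonic acid for both arms. It read 8.55, 8.45 and 8.13 without cre and 8.96, 8.64, 8.90 and 8.89 with cre. The genotypes did not overlap, and the difference of 0.47 ± 0.12 (SE; interval 0.17 to 0.77; limma, unadjusted p = 0.00718, adjusted p = 0.362) ranged from 0.35 to 0.56 when single arrays were left out. Mboat7, an acyltransferase that puts arachidonic acid back into phosphatidylinositol, read 6.95, 6.66 and 6.87 without cre and 7.14, 7.14, 7.07 and 7.12 with cre. Its arrays did not overlap either, with a difference of 0.29 ± 0.078 (SE; limma, unadjusted p = 0.00757, adjusted p = 0.364).

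The other prostanoid synthases included 2 of 6 measured genes with an unadjusted p under 0.05, the alternative prostaglandin E synthases. That is 33.3% of a small group, against 11.1% of the whole wider list and 11.5% of all genes. Ptges2, the membrane-bound form 2 of the enzyme, read 5.87, 5.93 and 6.24 without cre and 6.66, 6.40, 6.57 and 6.25 with cre, a difference of 0.46 ± 0.13 (SE; limma, adjusted p = 0.394). Ptges3, the cytosolic synthase that also serves as the Hsp90 co-chaperone p23, read 5.91, 5.26 and 5.57 without cre and 6.11, 6.05, 5.98 and 6.36 with cre, a difference of 0.54 ± 0.17 (SE; limma, adjusted p = 0.394). In both genes all cre arrays lay above all controls, as they did for 5.23% of all genes. Other probe sets annotated to Ptges3 together with a pseudogene were not used, so its value is less certain. Tbxas1, thromboxane A synthase, overlapped between genotypes (-0.044 ± 0.25 SE), with its highest value on LysM+/+ array 2 (9.65) and its lowest on LysM+/cre array 3 (8.67).

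Of the 5 genes that remove or carry prostaglandins none had an unadjusted p under 0.05. Hpgd, which inactivates prostaglandin E2, read 6.68, 9.44 and 7.29 without cre and 7.59, 7.15, 6.03 and 7.90 with cre. Like Alox5 it was highest on LysM+/+ array 2 and lowest on LysM+/cre array 3, and its difference of -0.64 ± 0.73 (SE) became 0.18 without the former. Ptgr2, a prostaglandin reductase, had the smallest p of this group (0.41 ± 0.20 SE; limma, adjusted p = 0.486). The 5 other prostanoid receptors measured all had differences between -0.053 and 0.015. Ptgfr, the receptor of prostaglandin F2 alpha, had the smallest p among them (-0.053 ± 0.069 SE; limma, adjusted p = 0.784). The mean levels of Ptger3 (4.95), Ptgdr (4.69) and Ptgfr (4.48) lay below the median gene (5.55). Those of Ptgir (5.61) and Tbxa2r (5.87) lay little above it. Small differences at such levels do not show that these genes were expressed and unchanged.

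On the lipoxygenase side, the 6 other lipoxygenase genes differed by -0.047 to 0.092. All 6 lay below the median gene (5.55), with mean levels from 4.25 to 5.24 over the 7 arrays. Small differences at such levels do not show that these genes were expressed and unchanged. Alox15, which in mouse macrophages makes mainly other oxidised fatty acids than leukotrienes, read between 5.08 and 5.45 on all arrays (-0.047 ± 0.11 SE), and Aloxe3 had the smallest p (0.092 ± 0.090 SE; limma, adjusted p = 0.710). Among the 8 measured genes of leukotriene conversion, export and removal, Dpep1, a dipeptidase that turns leukotriene D4 into E4, read 8.84, 7.73 and 9.12 without cre and 6.99, 7.87, 7.10 and 6.78 with cre. The genotypes overlapped at LysM+/cre array 2, and the difference was -1.38 ± 0.39 (SE; limma, unadjusted p = 0.00961, adjusted p = 0.387). The fibroblast markers Dcn (-1.38), Lum (-0.78) and Pdgfra (-0.88) and the epithelial markers Slc26a3 (-1.07) and Car4 (-0.94) had fitted differences of the same sign. These were the markers of the 2 lists at an unadjusted p under 0.05 in limma. Of the 10 fibroblast markers 6 were lower and 4 higher with cre, and of the 10 epithelial markers 9 were lower and 1 higher. The mean of the 10 fibroblast markers ran from 7.32 to 7.67 without cre and from 6.80 to 7.38 with it, and that of the 10 epithelial markers from 6.70 to 8.03 and from 6.81 to 7.63. Their part in the Dpep1 values was not tested.

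The leukotriene receptors included no gene with an unadjusted p under 0.05. Ltb4r1, the high-affinity leukotriene B4 receptor, read 6.32, 6.29 and 6.41 without cre and 7.79, 6.80, 6.60 and 6.60 with cre. All cre arrays lay above the closely grouped controls, and LysM+/cre array 1 stood well above the others. The difference was 0.61 ± 0.29 (SE; limma, adjusted p = 0.471), and 0.33 without LysM+/cre array 1. Cysltr1, a receptor of the cysteinyl leukotrienes, read 6.90, 7.38 and 6.64 without cre and 8.13, 7.55, 6.74 and 7.56 with cre, with overlap and a difference of 0.53 ± 0.33 (SE; limma, adjusted p = 0.569).

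The remaining marker lists overlapped between the genotypes. The list means for eosinophils ran from 4.14 to 4.18 without cre and from 4.12 to 4.34 with it, with all 6 measured markers below the median gene. They ran from 5.67 to 6.46 and from 5.83 to 6.01 for endothelium, from 6.74 to 7.49 and from 6.27 to 7.26 for dendritic cells, from 5.89 to 6.39 and from 5.57 to 6.15 for platelets, and from 4.83 to 5.03 and from 4.87 to 5.10 for T, NK and B cells. Markers with an unadjusted p under 0.05 that are not named above were Tpsb2 (0.30), Sh2d6 (-0.21), Cd79b (0.39) and Cd3d (0.21), and none passed the adjusted threshold in limma.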

How the data were processed

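Expression was measured on 7 arrays, 3 of Rictorfl/fl LysM+/+ and 4 of Rictorfl/fl LysM+/cre colon macrophages. The authors deposited log2 intensities for 41345 probe sets, which the series' design text credits to Affymetrix Expression Console. The submitters' processing notes add Transcriptome Analysis Console. Their versions, the summarisation and the background step are not stated in these sources. Array quartiles were nearly equal before any step taken here, so a shift common to all genes would not show.

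Probe sets with exactly 1 symbol in the platform annotation (23521) were kept, the brightest per gene over the 7 arrays, with no filter on dim signals. The genotype test was limma's two-sided moderated test (lmFit and eBayes; limma 3.58.1, R 4.3.3), and Benjamini-Hochberg adjustment ran over 22180 genes. The number of arrays limits the precision. The code was tested on simulated data. All members and the symbols of RefSeq (GRCm38.p6) agreed through Entrez identifiers.

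The members, the wider list and the marker lists were chosen with earlier results of these data known. Named were all members, 6 fixed genes of the wider list (Pla2g4a, Tbxas1, Hpgd, Alox15, Ltb4r1 and Cysltr1), others of that list at an unadjusted p under 0.05 or, for roles without one, the gene of smallest p, up to 3 genes per marker list at that threshold, and the 3 genes nearest in pattern to Ptgs2 and Alox5. S100a8, Cpa3, Adgre1, Csf1r and Mertk were named after their values were seen, and Rictor as the targeted gene. Alternatives were quantile or median scaling, leaving out dim genes, the mean of probe sets, a trended robust variance, array weights, a block by replicate number and leave-one-out fits. Figures were drawn with matplotlib 3.10.9.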

Additional observations from a re-analysis of the deposited data

Results flagged for a closer look

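Among 22 groups of 4 LysM+/cre values examined for a sample far from the others, chance would give about 1 in 20, and 2 were found. Ptges on LysM+/cre array 3 (8.57) stood above the other LysM+/cre arrays, whose highest was 7.03, with a gap of 0.87 of the whole range. Ltb4r1 on LysM+/cre array 1 (7.79) stood above the other 3, whose highest was 6.80, with a gap of 0.83 of the range.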

How the results depend on the processing

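None of the 9 genes and no other gene of the array passed an adjusted p of 0.05 in limma under any alternative run. The count of the 9 genes at an unadjusted p under 0.05 (1 with all arrays) was 1 under both other scalings, the filter on dim probe sets, the mean of probe sets, the other variance model and array weights, and ranged from 1 to 3 when single arrays were left out. It was 2 without LysM+/+ array 2 and LysM+/cre array 3 together, a setting chosen after seeing the data. Hpgds was not at this threshold without LysM+/+ array 2, without LysM+/+ array 3 or without LysM+/+ array 2 and LysM+/cre array 3 together. With the replicate block the count was 3 (Hpgds, Alox5 and Ltc4s), but the labels do not say what the numbers mark, and LysM+/cre array 4 has no partner. Deviations of same-numbered arrays had correlations of -0.115, 0.121 and 0.103, inside the range of other pairs (-0.311 to 0.239). Such values cannot settle whether same-numbered arrays belong together. The cyclooxygenase median (-0.19) ranged from -0.34 to 0.097 and the lipoxygenase median (-0.34) from -0.57 to -0.12 with single arrays left out, and without the 2 arrays together they were -0.54 and -0.037. The wider pathway count (5) ranged from 5 to 10 with single arrays left out, and that of all genes (2549) from 1693 to 2779. Without those 2 arrays Ptger2 was -0.85 and Alox5ap 0.22. Directions turned for Ptges with array weights (-0.052), with single arrays left out (-0.32 to 0.54) and without the 2 arrays (-0.63). With single arrays left out they also turned for Ptger2 (-0.62 to 0.097), Alox5ap (-0.0043 to 0.20), Tbxas1 (-0.23 to 0.17), Hpgd (-1.20 to 0.18) and Alox15 (-0.12 to 0.020). Without the 2 arrays Tbxas1 was 0.34 and Hpgd 0.56. The causes were not tested. The other 6 of the 9 genes kept their direction under every alternative run.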
